A study of Mus musculus with 150 samples.

Results

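Trat1, Retnlb, Retnla and Retnlg lie side by side on mouse chromosome 16, to the right of the replication domain that holds Dppa4, Dppa2 and Morc1. They are 4 of the 679 protein-coding genes of the chromosome. They were chosen by position, as genes beside the edited region that no labelled edit removes, and each was given the mean replication timing score of the positions in its body or, where none lies there, of the nearest position. In mm10, Trat1 spans chr16:48730774-48810547 and holds 16 measured positions, which are 5 kb apart. Retnlb (chr16:48816856-48818892), Retnla (chr16:48842609-48844461) and Retnlg (chr16:48872608-48874498) are shorter than the spacing and hold 0 positions, so each takes the value of 1 position, at 48820000, 48845000 and 48875000. All 19 positions held a value in each of the 123 columns used. The scores of the 4 genes come from neighbouring stretches of 1 continuous profile and are not 4 independent measurements.

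The study edited mouse embryonic stem cells (mESC) with CRISPR and measured replication timing by Repli-seq, in which cells take up BrdU, are separated by DNA content into an early and a late S phase fraction, and the DNA copied in each is sequenced. The 150 libraries form 75 pairs of an early and a late fraction, and a higher score means earlier replication. Hybrid cas/129 cells give a separate profile for the svim and the cast allele, and 43 clones of 26 genotypes (50 profiles) with edits on chromosome 16 were used. The labels give no edited allele for these clones. Where a deletion left blank positions, these were on svim alone, except in 680kdel, where they were on cast alone. For deletions too short to leave a blank, and for inversions, the blanks do not show the allele. Also described are 3 v6.5 clones, whose alleles are C57BL and svim, and a profile of clone 100kdel C3 whose source name carries NPC. A further 6 cas/129 profiles come from clones with the Rex1 deletion, the Trim deletion or both on chromosome 8. Depth per library is unknown, because the files hold scores and no read counts.

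Deletions of named intervals were central to the design. Interval a is chr16:48308399-48311882 (3.483 kb), interval b chr16:48396806-48437301 (40.495 kb) and interval c chr16:48581359-48620367 (39.008 kb). The genotypes a.del (2 clones), b.del (2), c.del (4), ab.del (2), ac.del (2), bc.del (2) and abc.del (2) lack the intervals in their names. In 4k.b.del (2 clones) and 4k.b.c.del (1 clone), chr16:48280115-48284009 was removed with b, or with b and c. The 4kdel (2 clones) lacks that 3.894 kb alone. Longer edits were the deletions 18kdel (chr16:48264883-48284136, 2 clones), 28kdel (chr16:48308399-48336437, 1 clone), 28.5kdel (chr16:48284012-48311882, 1 clone), 100kdel (chr16:48235966-48336426 and, in clone B6, chr16:48235965-48336454), 145kdel (chr16:48190129-48336437, 1 clone), 245kdel (chr16:48336437-48581357, 1 clone), 435kdel (chr16:47900079-48336437, 1 clone) and 680kdel (chr16:47900079-48581357, 1 clone). The 145k.30kdel (2 clones) carries the 145kdel together with the deletion chr16:48665576-48695490. The inversions were 28.5kinv (chr16:48284012-48311882, 1 clone), 435kinv (chr16:47900079-48336437, 1 clone) and 680kinv (chr16:47900059-48581356, 3 clones). Neither the 245kdel, the 680kdel nor an inversion removes interval c. By these coordinates the 245kdel removes b, and the 680kdel removes a and b. The 28kdel, 28.5kdel, 100kdel, 145kdel, 145k.30kdel and 435kdel remove a. The 18kdel removes the 4kdel stretch.

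The labels list no unedited cas/129 profile, so 22 genotypes were compared with 5 clones edited elsewhere, called the comparison clones. These were 30kdel B11 and C2 (chr16:48665576-48695490), 29kdel D8 (chr16:48235963-48264883), 14kdel D11 (chr16:48264884-48280115) and 24.5kinv 3 (an inversion of chr16:48311882-48336437). Each is a clone with an edit of its own, and the 30kdel ends 35.284 kb left of Trat1. Cells that are not hybrid give 1 profile for both alleles together, and the 46C line is their unedited profile. Per the labels, 46C was kept in GMEM with FBS and LIF and the hybrid cells in DMEM with 2i and LIF, so no test spans them. Clones of a genotype are the replicates. The labels do not say that they were grown separately, so p-values measure only the spread between these clones, which may be technical.

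Replication timing is the order in which stretches of the genome are copied in S phase, and it is organised in domains that start together. Early domains tend to hold active genes and open chromatin, and the boundary on each side of such a domain is a slope along which copying comes later with distance. Dppa2 and Dppa4 are transcription factors of pluripotent and germ cells, and Morc1 silences transposons in the male germline. Trat1 encodes an adaptor protein of the T cell receptor complex. Retnla, Retnlb and Retnlg encode small secreted proteins of the resistin family: Retnla is a marker of alternatively activated macrophages, Retnlb is made by goblet cells of the gut, and Retnlg is found in myeloid cells.

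The neighbours Retnla and Retnlg are copies of an ancestral gene, and the likeness of their promoters is given as a description. Sequence differences between the alleles were not examined. RefSeq (GRCm38.p6) gave promoter windows for 3 of the 4 genes, from 250 bases before to 50 bases after the start. The windows of Retnla (chr16:48842359-48842658, plus strand) and Retnlg (chr16:48872358-48872657, plus strand) are 300 bases long, and in an alignment of them 178 of 228 aligned columns (78.1%) were identical. Capitals mark the letters TTCNNNNGAA, the motif of the macrophage factor STAT6, which reads alike on both strands; it occurs in 2284 of 32851 promoters of that length (6.95%).
Retnla: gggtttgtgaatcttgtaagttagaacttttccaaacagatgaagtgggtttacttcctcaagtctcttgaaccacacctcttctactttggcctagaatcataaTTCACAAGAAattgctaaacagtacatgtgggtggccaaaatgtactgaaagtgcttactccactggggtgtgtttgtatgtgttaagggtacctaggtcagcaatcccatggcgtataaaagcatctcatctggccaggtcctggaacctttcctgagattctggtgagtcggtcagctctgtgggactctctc
Retnlg: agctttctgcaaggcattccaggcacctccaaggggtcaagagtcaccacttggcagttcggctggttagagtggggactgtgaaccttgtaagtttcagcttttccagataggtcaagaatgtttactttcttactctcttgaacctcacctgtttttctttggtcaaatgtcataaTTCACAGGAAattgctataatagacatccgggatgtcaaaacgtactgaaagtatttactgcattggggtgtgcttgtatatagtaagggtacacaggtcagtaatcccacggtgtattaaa
The match, TTCACAAGAA in Retnla and TTCACAGGAA in Retnlg, starts at -145 and -72 from the annotated start. The window of Trat1 (chr16:48772013-48772312, minus strand, at a start inside the gene body) holds 0 matches. A match is a description of these letters, not a binding site, and the timing score says nothing of it.

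In the 5 comparison clones the mean scores of the 4 genes were above 0 and lay on a falling slope. Trat1 scored 1.36 in 30kdel B11, 1.69 in 30kdel C2, 0.72 in 29kdel D8, 1.09 in 14kdel D11 and 1.06 in 24.5kinv 3 on svim, a mean of 1.19 ± 0.36 (SD, n = 5). The svim means of the resistin-like genes were 0.88 ± 0.49 for Retnlb, 0.70 ± 0.53 for Retnla and 0.48 ± 0.55 for Retnlg (SD, n = 5). The score fell from Trat1 to Retnlg through both genes between them in 5 of 5 clones on each allele. From Trat1 to Retnlg the drop was 0.71 ± 0.33 on svim and 0.64 ± 0.24 on cast (SD, n = 5). On cast, Trat1 scored 1.25, 2.54, 0.80, 1.49 and 1.08 in the same order of clones, and the means were 1.43 ± 0.67, 1.09 ± 0.72, 0.95 ± 0.66 and 0.79 ± 0.55 from Trat1 to Retnlg (SD, n = 5). Clone 30kdel C2 is the highest on both alleles. At Trat1 the svim minus cast difference was -0.25 ± 0.39 (SD, n = 5) and ran from -0.85 to 0.11, so the alleles were close in these clones.

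For scale, the median svim score over 676 genes of the chromosome in the comparison clones was 2.21. Trat1 lay at the 36.4th percentile and Retnlg at the 33.3rd, so the 4 genes were later than most genes. Repeat libraries of a clone (7 pairs) differed with an SD of 0.25 at Trat1 to 0.32 at Retnla and Retnlg on svim, and of 0.14 to 0.26 on cast. The largest gap between repeats was 0.92, at Retnlg on svim. Repeat libraries were averaged, so n counts clones.

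Over all 43 cas/129 clones, the svim allele spread far more widely than cast. Trat1 on svim ran from -2.24 through a median of 0.47 to 2.74, and Retnlg from -2.21 through -0.12 to 1.75. On cast, Trat1 was above 0 in 41 of 43 clones with a median of 1.51, and Retnlg in 36 of 43 with a median of 0.78. On svim the numbers above 0 were 27 for Trat1, 27 for Retnlb, 23 for Retnla and 17 for Retnlg. The low svim values sorted with interval c. All 11 clones (5 genotypes) that lack c were below 0 on svim at all 4 genes, with Trat1 between -2.24 and -0.061 (median -1.29). Of the 32 clones that keep c, 5 were below 0 at Trat1, 5 at Retnlb, 9 at Retnla and 15 at Retnlg. Their Trat1 median was 0.69, and many of them lack a, b or both. The 5 at Trat1 were ab.del D10, ab.del D12, a.del G5, 680kinv B10 and 680kinv C5. On cast, the clones lacking c kept Trat1 between 0.71 and 1.90. Further right the cast allele was below 0 in 1 of these 11 clones at Retnla (lowest -0.39) and in 2 at Retnlg (lowest -0.68). Inside interval c, svim is blank at 8 of 8 positions in 13 of 13 profiles of these clones, and cast has 0 blanks.

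**Figure D1:**
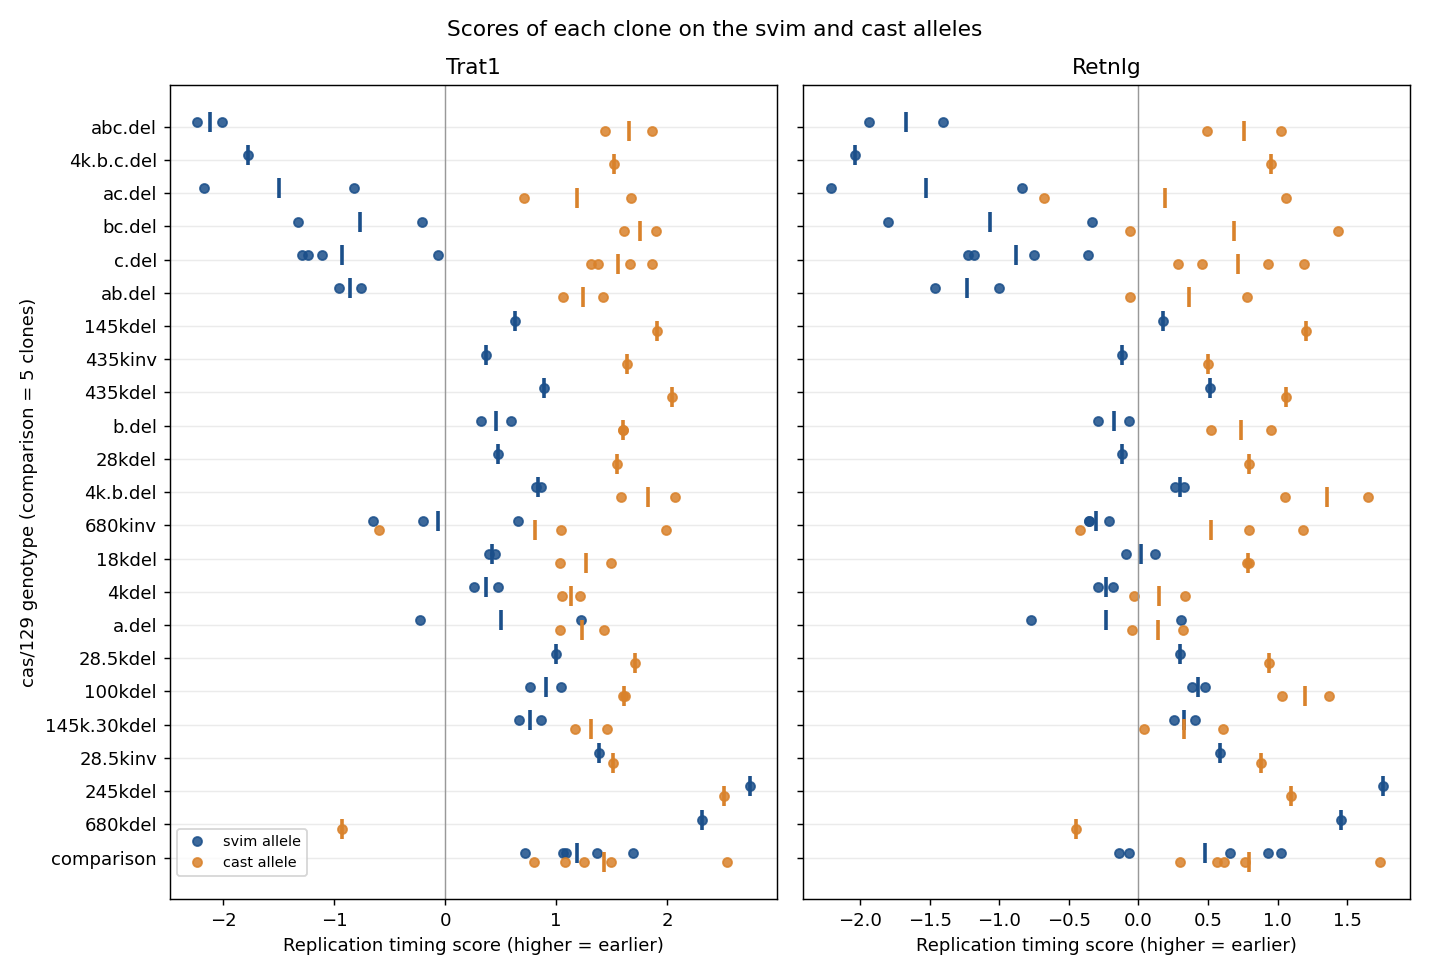
Replication timing score of each cas/129 clone at Trat1 and Retnlg, 1 row per genotype, blue for svim and orange for cast; vertical ticks are means over clones, and the bottom row holds the 5 comparison clones. The svim points of the 5 genotypes lacking interval c and of ab.del lie left of 0. The cast points of these genotypes lie between 0.71 and 1.90 at Trat1 and between -0.68 and 1.43 at Retnlg.

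Removal of interval c alone gave negative svim scores at all 4 genes, and Trat1 and Retnlb passed the test. In c.del, Trat1 on svim scored -1.29 in clone A12, -1.11 in B11, -0.061 in C6 and -1.24 in C9, all below the lowest comparison clone (0.72). C6 stands apart from the other 3. Its Retnlg value was -0.36, against -1.18 in A12, -0.75 in B11 and -1.22 in C9. The svim means were -0.93 ± 0.58 for Trat1, -0.96 ± 0.56 for Retnlb, -0.93 ± 0.50 for Retnla and -0.88 ± 0.40 for Retnlg (SD, n = 4). Against the comparison clones Trat1 fell by 2.11 (SE 0.33, limma adjusted p = 0.00777) and Retnlb fell by 1.83 (SE 0.34, adjusted p = 0.0284). Retnla differed by -1.63 (adjusted p = 0.0587) and Retnlg by -1.36 (adjusted p = 0.175) and did not pass. Of 679 genes, 0.295% were called lower on svim in c.del, and these were Trat1 and Retnlb. Without A12 or without B11 none of the 4 passed, and without C9, without 30kdel B11 or without 30kdel C2 only 1 did. Leaving out both 30kdel clones, which have the highest svim scores of the comparison, also gave 0. Rescaling each column on the rest of the chromosome ended the svim calls in c.del, ac.del and ab.del too and left 2 in abc.del, so the svim calls depend on the scaling.

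The cast allele of the same clones served as an internal reference. Trat1 on cast was 1.66 in A12, 1.38 in B11, 1.86 in C6 and 1.32 in C9, inside the comparison range. Its difference svim minus cast at Trat1 was -2.96, -2.49, -1.93 and -2.56, so clone C6 is less apart from the others on this measure. Relative to the comparison clones it differed by -2.24 (SE 0.26, limma adjusted p = 6.11e-05) at Trat1, -1.92 (SE 0.25, adjusted p = 2.00e-04) at Retnlb, -1.63 (SE 0.26, adjusted p = 0.0015) at Retnla and -1.28 (SE 0.26, adjusted p = 0.0228) at Retnlg. These were the 4 genes called among 679 (0.589% lower), and the median difference over the 4 was -1.77 against 0.085 over all genes. Every c.del clone lay below every comparison clone at each of the 4 genes (exact permutation test, two-sided, p = 0.00794, the smallest that 4 against 5 clones allow; 0.103 after adjustment over the 13 genotypes with 2 or more clones). The Retnlg call was lost without c.del C6, c.del C9, 30kdel B11 or 24.5kinv 3, and without both 30kdel clones. The drop from Trat1 to Retnlg was absent on svim: it was -0.049 ± 0.28 in c.del (SD, n = 4), and 1 of 4 clones kept the descending order, against 4 of 4 on cast.

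Removal of all 3 intervals gave the lowest genotype mean on svim at Trat1 among the cas/129 mESC genotypes. In abc.del, svim ran from -2.01 at Trat1 to -1.40 at Retnlg in clone A6 and from -2.24 to -1.93 in E2, so Trat1, the gene nearest to c, was the latest of the 4. On cast the same clones scored 1.86 and 1.44 at Trat1 and 1.03 and 0.49 at Retnlg. All 4 genes fell on svim, with differences of -3.31 at Trat1 (SE 0.37, limma adjusted p = 6.70e-05), -2.82 at Retnlb (adjusted p = 8.88e-04), -2.51 at Retnla (adjusted p = 0.00358) and -2.15 at Retnlg (adjusted p = 0.0163), where 1.03% of 679 genes were called lower. With both clones but without the 30kdel clones 2 of the 4 passed, and without E2 1 did. Svim minus cast differed by -3.53 at Trat1 (SE 0.28, adjusted p = 5.94e-07) and -2.11 at Retnlg (adjusted p = 3.83e-04), with 1.33% of genes called lower and all 4 among them.

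In ac.del the clones differed from each other. Clone E4 was flat on svim, with -0.82 at Trat1, -0.82 at Retnlb, -0.83 at Retnla and -0.84 at Retnlg. Clone H8 was later, with -2.18 at Trat1 and -2.21 at Retnlg, and its cast allele was low too, with 0.71 at Trat1 and -0.68 at Retnlg. On svim 3 of the 4 genes fell, with differences of -2.68 at Trat1 (limma adjusted p = 0.00713), -2.44 at Retnlb (adjusted p = 0.0152) and -2.25 at Retnla (adjusted p = 0.0314), while Retnlg differed by -2.00 (adjusted p = 0.0776); 0.884% of genes were called lower. Those calls were lost without H8 or without 30kdel C2. On svim minus cast all 4 genes passed, from -2.44 at Trat1 (adjusted p = 1.66e-04) to -1.40 at Retnlg (adjusted p = 0.0296), with 1.18% of genes called lower; without E4 or without H8, 2 of the 4 passed.

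The bc.del clones were also unlike each other. Clone B3 scored -0.21 at Trat1 and -0.34 at Retnlg on svim, and clone D12 scored -1.33 and -1.80. None of the 4 genes passed on svim, where Trat1 differed by -1.96 (limma adjusted p = 0.523) and 0% of 679 genes were called, with 5 at an unadjusted p under 0.05. Relative to cast, svim was more alike in the clones (-2.11 and -2.94 at Trat1). It passed at Trat1, Retnlb and Retnla, by -2.28 (adjusted p = 0.0057), -2.00 (adjusted p = 0.0057) and -1.73 (adjusted p = 0.013), and Retnlg differed by -1.44 (adjusted p = 0.0531). That is 3 of the 4 genes called lower, among 0.589% of all genes, and 0 without clone D12.

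The single 4k.b.c.del clone, G12, scored -1.77 at Trat1, -1.94 at Retnlb, -1.99 at Retnla and -2.03 at Retnlg on svim. Its spread is taken from the comparison clones. On svim the differences ran from -2.96 at Trat1 to -2.51 at Retnlg with limma adjusted p between 0.0525 and 0.101, so 0 of the 4 passed (0% of 679 genes, with 10 at an unadjusted p under 0.05). Without 14kdel D11, 24.5kinv 3 or 29kdel D8, all 4 passed. Relative to cast all 4 passed, by -3.05 at Trat1 to -2.67 at Retnlg, and 0.884% of genes were called lower. Removal of the same 4 kb with b but with c kept left Trat1 on svim at 0.86 in clone B1 and 0.82 in B4 of 4k.b.del. Both lie inside the comparison range. On either allele 0 of the 4 genes passed (0% of 679 genes, where 15 genes on svim and 45 on cast had an unadjusted p under 0.05). Relative to cast 0 passed either (0% of 679 genes, with 65 at an unadjusted p under 0.05). At Retnlg, however, svim minus cast was -0.78 in B1 and -1.32 in B4, both below every comparison clone. Clone B11 of c.del, which lacks c, had -1.20 there.

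Interval c was present in ab.del, and yet its svim scores were low. Clone D10 scored -0.96 at Trat1, -1.19 at Retnlb, -1.31 at Retnla and -1.46 at Retnlg, and clone D12 scored -0.76, -1.05, -1.08 and -1.001. Again 3 of the 4 genes fell on svim, with differences of -2.04 at Trat1 (limma adjusted p = 0.0142), -1.99 at Retnlb (adjusted p = 0.0228) and -1.90 at Retnla (adjusted p = 0.0408), and Retnlg differed by -1.71 (adjusted p = 0.100), with 1.03% of genes called lower. Those calls went to 0 without either ab.del clone or without 30kdel B11, to 1 without 30kdel C2, and to 0 without both 30kdel clones. Relative to cast, svim passed at Trat1 (-1.85, adjusted p = 0.00133), Retnlb (-1.74, adjusted p = 0.00296) and Retnla (-1.56, adjusted p = 0.00861) and not at Retnlg (-1.28, adjusted p = 0.0605), with 1.03% of genes called lower, and at 0 genes without clone D12 or when all cas/129 clones share 1 fit. Loss of a or of b alone gave smaller differences from the comparison clones. Trat1 on svim was 1.23 and -0.23 in the a.del clones 53 and G5, and 0.59 and 0.32 in the b.del clones D10 and D6, and 0 of the 4 genes passed in either genotype on svim (0% of 679 genes, with 110 in a.del and 1 in b.del at an unadjusted p under 0.05).

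The genotypes were ordered by the svim minus cast difference relative to the comparison clones. At all 4 genes the same 6 genotypes came lowest, namely abc.del, 4k.b.c.del, ac.del, bc.del, c.del and ab.del. The 245kdel and 680kdel were among the 3 highest, but they are unlike on the deleted allele. In 680kdel, blank on cast in the deleted stretch, Trat1 scored -0.93 on cast and 2.32 on svim. The svim score also lay above the highest comparison clone (1.69). A late deleted allele and a high other allele thus both place this clone at the high end. In 245kdel, blank on svim there, Trat1 scored 2.74 on svim. At Trat1 the order among the first 6 is that just given, with 145kdel, 435kinv, 435kdel and b.del next. Few steps of the order exceed the spread of the comparison clones. Of 21 steps between neighbouring genotypes at Trat1, 5 were larger than the SD of the comparison clones (0.39): from abc.del to 4k.b.c.del (0.48), from 4k.b.c.del to ac.del (0.60), from ab.del to 145kdel (0.82), from 145k.30kdel to 28.5kinv (0.42) and from 245kdel to 680kdel (3.01). The steps among ac.del, bc.del, c.del and ab.del did not. At Retnlg also 5 steps did, and at Retnlb and Retnla 4 did. Over clones, those lacking c had a svim minus cast difference at Trat1 between -3.88 and -1.93, and those keeping it between -2.64 and 3.24. The overlap at Trat1 is 680kinv B10 (-2.64), ab.del D12 (-2.18) and ab.del D10 (-2.02). In all, 26 of 88 tests of svim minus cast (4 genes in 22 genotypes) passed, 22 lower and 4 higher, in 7 genotypes. In these 7, between 0.589% and 1.33% of all genes were called in the same direction. On svim 12 of 88 passed, all lower, in 4 genotypes, where 0.295% to 1.03% of all genes were called lower. The 4 genes share 1 continuous profile, so the tests that passed are not separate cases. The exact permutation test of svim minus cast (two-sided) gave 0.0476 in abc.del, ab.del, ac.del and bc.del at each of the 4 genes, the smallest p that 2 against 5 clones allow, and the adjusted values were 0.103 at Trat1 and Retnlb and 0.124 at Retnla and Retnlg. The b.del, which keeps c, reached the same exact p at Trat1 (-0.90) and Retnlb (-0.82), both with an adjusted value of 0.103, and not at Retnla (exact p = 0.0952) or Retnlg (exact p = 0.143).

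**Figure D2:**
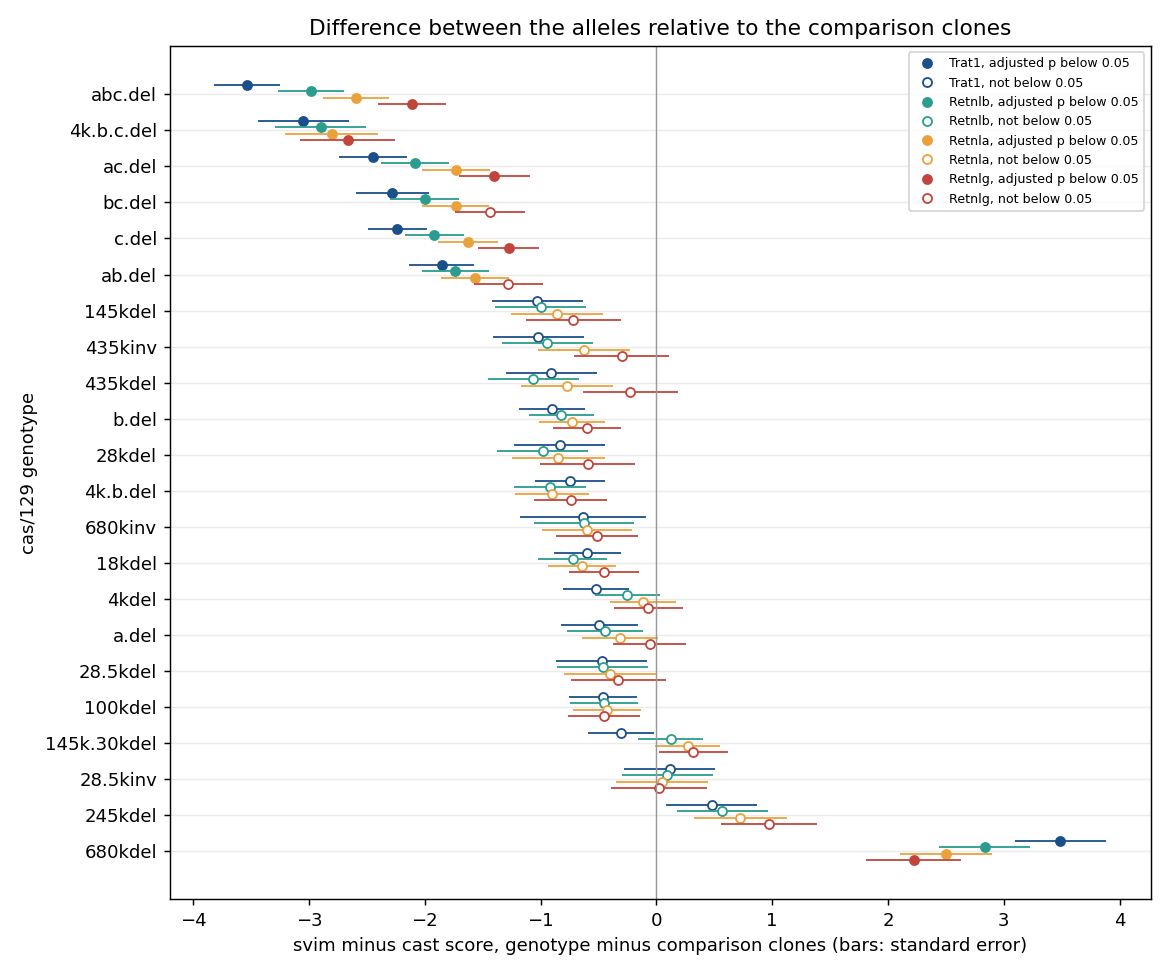
Difference between the alleles (svim minus cast score) of each cas/129 genotype minus that of the 5 comparison clones, 1 colour per gene; bars are standard errors of the limma fit, and filled points have an adjusted p below 0.05. Values at Trat1 run from -3.53 in abc.del to 3.49 in 680kdel, and the 5 genotypes lacking c and ab.del are the 6 lowest. The deleted stretch is blank on cast in 680kdel and on svim in the other deletions that left blanks.

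The allele pattern turned over in the 680kdel clone 79. On cast, where the deleted stretch is blank at 136 of 136 positions, the genes scored -0.93 at Trat1, -0.72 at Retnlb, -0.56 at Retnla and -0.45 at Retnlg, rising away from the deletion. On svim they scored 2.32, 1.90, 1.69 and 1.46. The svim minus cast difference was higher than in the comparison clones by 3.49 at Trat1 (limma adjusted p = 4.92e-04), 2.83 at Retnlb, 2.50 at Retnla and 2.22 at Retnlg (adjusted p = 0.0168), and 0.74% of 676 genes were called higher. It rests on 1 clone, and under quantile normalization 2 of the 4 passed. On cast alone, 0 of the 88 tests passed over the 22 genotypes (0% of genes in each), with a lowest adjusted p of 0.326; the furthest was Trat1 in 680kdel, at -2.36 (adjusted p = 0.847), and 6 genes of the chromosome had an unadjusted p under 0.05 in 680kdel. Over the 22 genotypes that number on cast ran from 0 in 435kinv to 154 in a.del. Without 14kdel D11 1 of the 4 genes passed on cast in 680kdel.

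The 680kinv turns the same stretch round and removes nothing. Its clones differed in which allele was low at Trat1: clone 80 scored 0.65 on svim and -0.59 on cast, clone B10 -0.65 on svim and 1.99 on cast, and clone C5 -0.20 on svim and 1.04 on cast. The svim minus cast difference was 1.25, -2.64 and -1.24, and its mean did not separate from the comparison clones (exact permutation test, two-sided, p = 0.5). A mean over clones that point in opposite directions describes none of them. In 245kdel F9, which removes the stretch from the right end of the 145kdel to interval c, the genes were the highest of all on svim, with 2.74, 2.31, 2.07 and 1.75 from Trat1 to Retnlg. On cast they scored 2.51, 1.95, 1.60 and 1.10. None of the 4 passed on any measure in 245kdel, where 0.884% of genes were called on svim minus cast. No test of the 4 genes passed in the genotypes not described so far, where 0% of genes were called on each allele and on svim minus cast.

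The change was followed with distance from the right end of interval c. Distances where the 30kdel clones have no svim value were left out, so that each value is against all 5 comparison clones. In these clones the svim score fell from 1.43 at 99.6 kb to 0.88 at 199.6 kb. In abc.del the difference from them became smaller with distance: it was -3.74 at 99.6 kb, -3.36 at 149.6 kb, -2.82 at 199.6 kb, -2.21 at 249.6 kb and -0.85 at 499.6 kb. In c.del it was nearly level over Trat1 and smaller further out, with -2.19 at 99.6 kb, -2.16 at 149.6 kb, -1.83 at 199.6 kb, -1.40 at 249.6 kb and -1.04 at 299.6 kb. In ab.del it was -1.96, -2.07, -2.00, -1.75 and -1.44 at the same 5 distances. Thus the genotype that keeps c had no smaller difference at Retnlg than the one that lacks only c, and the 2 were not tested against each other. In 4k.b.c.del the difference was -3.00 at 149.6 kb and -2.14 at 299.6 kb, and in bc.del -1.99 and -1.21.

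Beside c, svim of every clone lay below every comparison clone without a break out to 444.633 kb in abc.del and ab.del, 439.633 kb in 4k.b.c.del, 374.633 kb in c.del and ac.del, and 289.633 kb in bc.del. All of these runs pass Retnlg, whose far end is 254.131 kb from c. In 435kinv C5 the run ended at 249.633 kb, just before Retnlg's position. In 145k.30kdel it ended at 44.633 kb, where its own deletion begins and svim has no value, so it could not go further. In the remaining genotypes it ended at 29.633 kb or less. On cast, 680kdel had such a run, to 384.633 kb, and the other 21 genotypes had none. On svim minus cast, by which the genotypes were ordered, c.del had no such run from c (0 positions), while abc.del reached 599.633 kb (the end of the stretch examined), bc.del 509.633 kb, 4k.b.c.del 474.633 kb, ab.del 469.633 kb and ac.del 379.633 kb. The 145kdel, which keeps c, reached 394.633 kb on that measure with 1 clone, and 4kdel reached 109.633 kb. Inside the 30kdel the runs on svim and on svim minus cast were set against the 3 comparison clones that have values there. With 1 or 2 clones in a genotype a run can arise from the low end of the spread, and no test was made of the run itself.

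**Figure D3:**
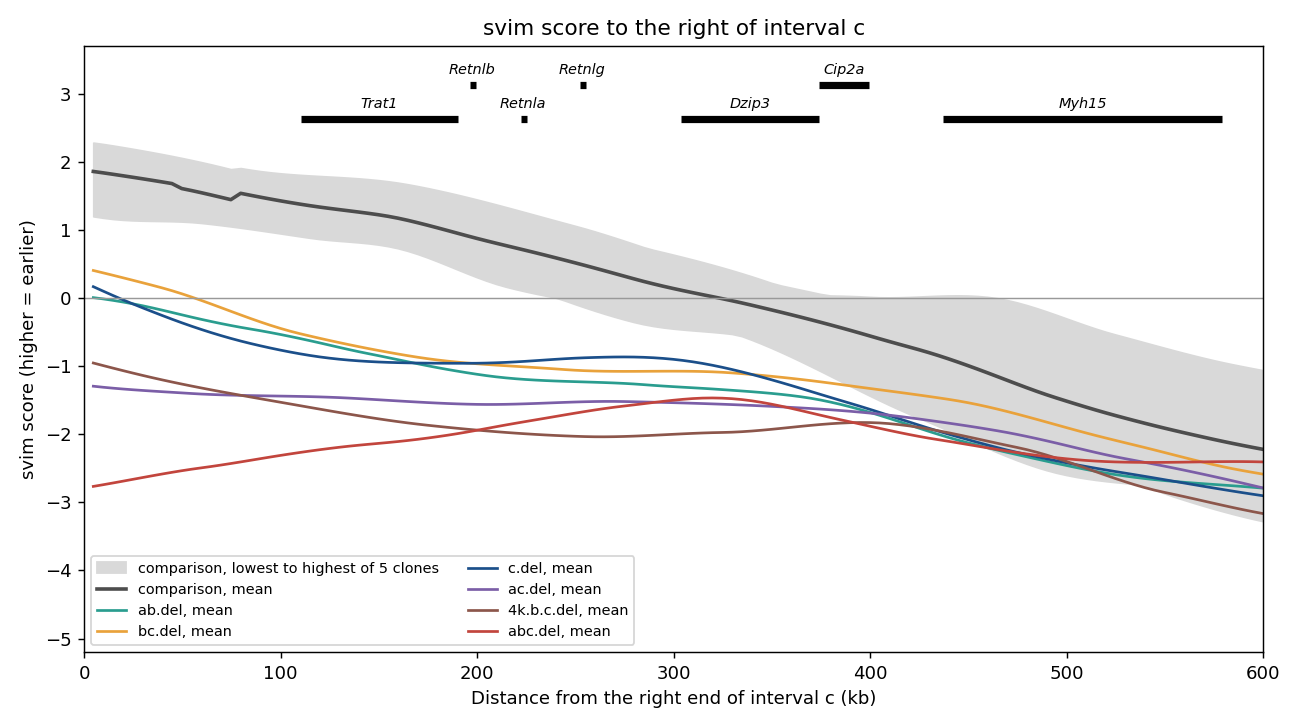
Mean svim score of 6 genotypes and of the 5 comparison clones (black line; grey band, lowest to highest clone) against the distance in kb from the right end of interval c, with the genes as bars. The 6 lines lie under the band over Trat1, Retnlb, Retnla and Retnlg and approach it near Myh15; the notch of the black line left of Trat1 is where the 30kdel clones have no svim values.

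Whether the effect of c depends on a and b was tested in 1 fit of the interval deletions on svim. Loss of c alone moved Trat1 by -2.11 (SE 0.36, limma adjusted p = 0.0049), Retnlb by -1.83, Retnla by -1.63 and Retnlg by -1.36. Of the 4, Trat1 and Retnlb passed, and they were all of the 0.295% of genes called. With a already lost the difference at Trat1 was -2.00 (SE 0.53, adjusted p = 0.157), with b lost -1.22 (SE 0.53, adjusted p = 0.999), and with a and b lost -1.27 (SE 0.53, adjusted p = 0.991). These contrasts called 0.147%, 0% and 0.147% of genes, none of them among the 4, and 1 of the 4 passed with a lost when a.del G5 was left out. Loss of a moved Trat1 by -0.69 when alone and by -1.31 with b lost, and loss of b by -0.73 when alone and 0.16 with c lost. None of the 4 genes passed for loss of a or b in any context; these called 0% (a alone, b alone, b with c lost, b with a and c lost, with 140, 7, 9 and 3 genes at an unadjusted p under 0.05), 0.295% (a with b lost, a with c lost, b with a lost) and 0.442% (a with b and c lost) of genes. The double and triple deletions did not depart from the sum of the single ones by a detectable amount. At Trat1 the departure was -0.62 for ab (SE 0.69), 0.12 for ac (SE 0.64), 0.89 for bc (SE 0.64) and 0.22 for abc (SE 0.85), and 0% of genes were called for each (24, 96, 17 and 66 genes at an unadjusted p under 0.05). With these errors a departure of 1 score unit could not be seen, so additive action is not shown.

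**Figure D4:**
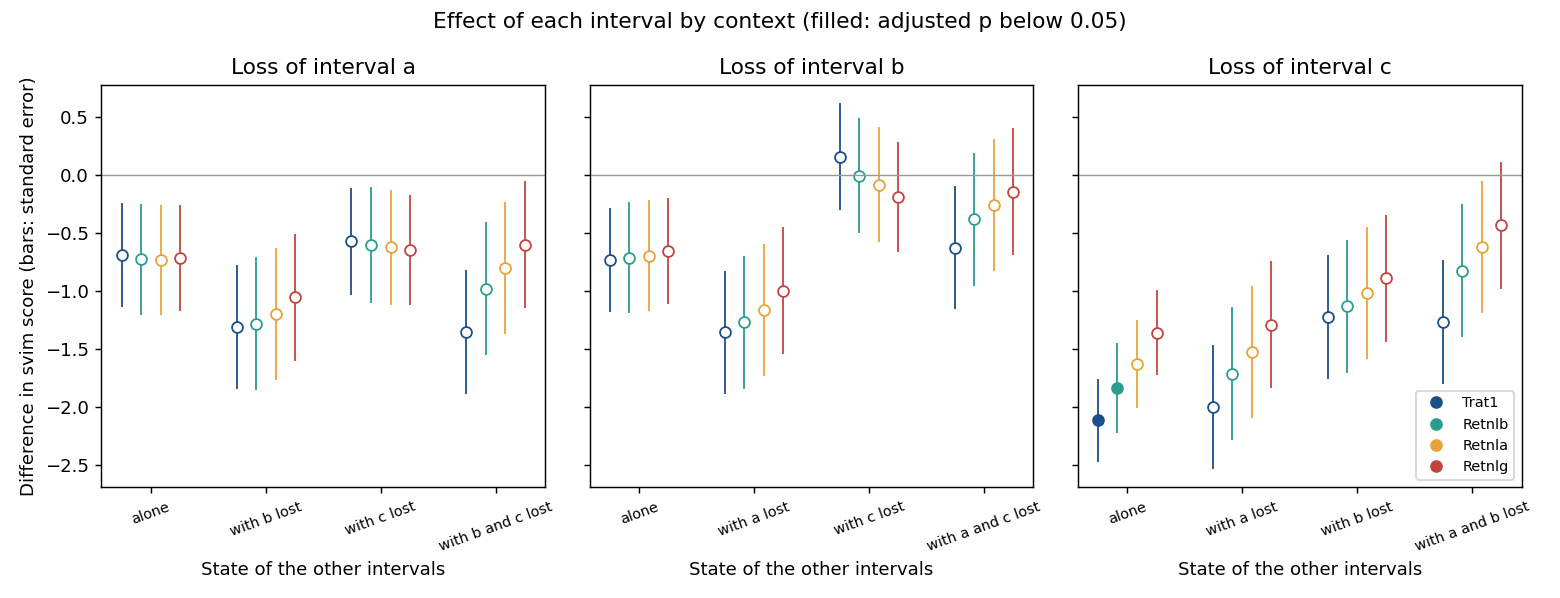
Difference in svim score at each of the 4 genes for the loss of interval a, b or c in each context (alone or with other intervals lost), in score units with standard errors of the limma fit. Loss of c alone gives -2.11 at Trat1 and -1.36 at Retnlg, and loss of c with a and b already lost gives -1.27 and -0.44; these contexts were not tested against each other.

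Non-hybrid cells carry the deletion on both alleles, per the labels, and their 15 profiles fall in 12 groups with 46C as the reference (1 profile). In 46C the genes scored 0.95 at Trat1, 0.50 at Retnlb, 0.34 at Retnla and 0.14 at Retnlg, the same descending order as in the comparison clones. The 345kdel (chr16:48235964-48581356, 1 profile) removes the stretch on the left of interval c, with a and b in it, and leaves c in place. It scored -1.91, -2.12, -2.23 and -2.29. This is 1 profile against 1 profile, each assumed to vary as the clones of other genotypes do, so the test cannot tell the edit from variation between profiles. The differences from 46C were -2.86 (limma adjusted p = 0.0116), -2.62 (adjusted p = 0.0282), -2.57 (adjusted p = 0.0285) and -2.43 (adjusted p = 0.0398), and 1.33% of 676 genes were called lower. A further 25 genes (3.7%) were called higher, 34 in all, against 4 or fewer in each other non-hybrid genotype, so this profile differs from 46C in many places. Only 245kdel and 680kdel have more than 1 clone here and so supply the whole spread. Without either 680kdel clone none of the 4 passed in 345kdel.

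The non-hybrid 680kdel (chr16:47900059-48581356) also removes a and b and keeps c. It scored -1.64 at Trat1 and -1.90 at Retnlg in clone 13, and -1.97 and -0.81 in clone 16. Trat1 fell by 2.76 (limma adjusted p = 0.00491), and Retnlb differed by -2.02 (adjusted p = 0.0550), Retnla by -1.72 and Retnlg by -1.49; 0.444% of genes were called lower. Without clone 13 or 16 none of the 4 passed, and without 245kdel clone 25 or 28 all 4 did. The 245kdel, which removes b but not a and shares the right end of these deletions, went the other way. Trat1 was 2.16 in clone 25 and 1.94 in clone 28. The difference of 1.10 did not pass (limma adjusted p = 0.177), with 0.296% of genes called. The 435kdel (chr16:47900059-48336419) scored -0.26 at Trat1 and -0.95 at Retnlg, a Trat1 difference of -1.21 (adjusted p = 0.517). The remaining genotypes had Trat1 between 0.46 (350kdel) and 1.33 (2kdel), with 0.48 in 100kdel, 1.31 in 500kdel, 1.22 in 45kdel, 1.20 in 45kinv and 1.19 in 350kinv. None of the 4 genes passed in them. The 500kdel called 0.592% of genes and the others 0%, with between 1 and 72 genes at an unadjusted p under 0.05.

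**Figure D5:**
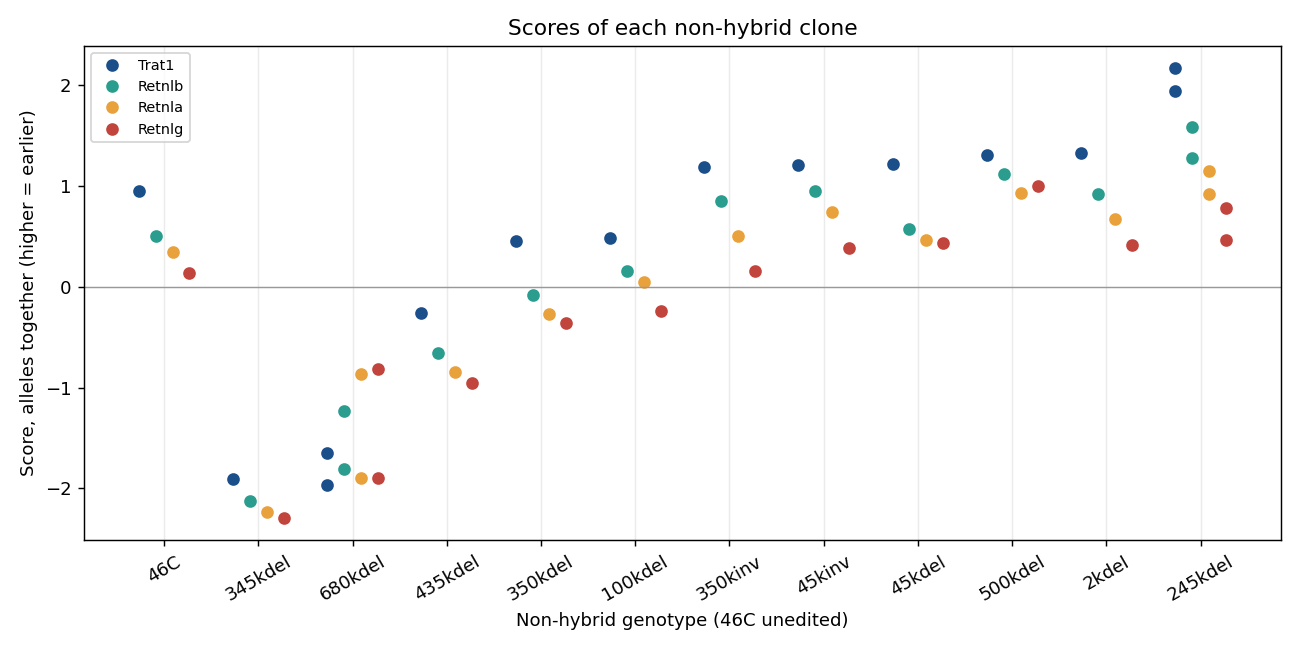
Replication timing score of Trat1, Retnlb, Retnla and Retnlg in each non-hybrid genotype, both alleles together, with 46C as the unedited profile; points are clones or profiles. The 345kdel and 680kdel points lie between -2.29 and -0.81, and 245kdel reaches 2.16 at Trat1.

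The lowest scores of all came from 1 profile. It is that of 100kdel C3 whose source name carries NPC (the cell type field still says mESC), and it scored -4.50 at Trat1, -4.69 at Retnlb, -4.60 at Retnla and -4.35 at Retnlg on svim, and -4.10, -4.29, -4.29 and -4.13 on cast. The mESC profiles of that clone scored 1.04, 0.77, 0.66 and 0.48 on svim. It has no replicate, so no test was made. In the 3 v6.5 clones, whose alleles are C57BL and svim, Trat1 was 0.56 and 0.55 in 100kdel C6, 1.11 and 1.33 in 18kdel H5, and 0.69 and 1.24 in 435kinv A4, all between the cas/129 extremes. Both 100kdel C6 and 18kdel H5 are blank on C57BL in the deleted stretch.

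The neighbours are given on svim alone, and a gene that did not pass does not mark the end of the change. The unbroken svim runs of abc.del and ab.del, to 444.633 kb, extend beyond Cip2a, whose far end is 399.349 kb from c. In c.del on svim, Dppa4 differed by -0.17, Dppa2 by -0.22 and Morc1 by -1.09 on the left, and Dzip3 (a ubiquitin ligase) by -1.02 and Cip2a (an inhibitor of the phosphatase PP2A) by -1.07 on the right, and none of these passed. In abc.del, Dppa4 (-4.64), Dppa2 (-4.82) and Morc1 (-5.06) fell, while Dzip3 (-1.44), Cip2a (-1.35) and Myh15 (-0.79), a myosin heavy chain, did not pass. In ab.del, Dppa4 (-3.65), Dppa2 (-3.50) and Morc1 (-2.30) fell. The 4 genes thus fell less than Morc1 in abc.del, and Trat1 by a like amount in ab.del. Intervals b and c overlap Morc1, and its score in each fit comes from the positions left there. Its values in c.del, ab.del and abc.del therefore rest on different parts of the gene. Differences between genes were not tested.

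Over the 43 clones, the genes whose svim score was most like the mean of the 4 were their neighbours Dzip3 (Pearson r 0.94), Morc1 (0.89) and Cip2a (0.88), and Myh15 had 0.70. Positions deleted in any of these clones were left out here. Morc1 was thus scored only on its end to the right of c. Dppa2 and Dppa4 had no position left and could not be compared. Further right, Bbx had 0.39, Ift57 0.33 and Cd47 0.19. Over 2 Mb away from the edits and the 4 genes, the closest were Pou1f1 (0.50), Chmp2b (0.49) and Nsun3 (0.47). These correlations describe 43 profiles that share their scaling and, for clones of a genotype, their edit. Cell-surface genes, most of them immune, were looked at as a list beside Trat1. Cd47, a neighbour on the right, is also on this list. Of 14 listed, 13 are on chromosome 16 and measured (Icosl is not on it), and 0 passed on svim or on svim minus cast in any of the 6 lowest genotypes. Their median svim minus cast difference was 0.024 in c.del and 0.14 in abc.del. In the comparison clones their svim scores ran from -3.03 through -0.50 to 3.20. Retn, the resistin gene itself, lies on chromosome 8 (chr8:3655770-3659818) and was measured in 6 profiles of clones edited there. It scored 1.82 at the lowest, 2.16 at the median and 2.48 at the highest on svim, and 1.87, 2.10 and 2.36 on cast.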

How the data were processed

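The deposited values are replication timing scores, 1 column per profile or allele, at 19641 positions of chromosome 16 spaced 5 kb. Per the submitters' processing notes, Bowtie2, SAMtools, bedtools and mm10 were used; for their versions, and for smoothing, log base and scaling, the sources used here say nothing. Every chromosome 16 column has an interquartile range of 4.598 and medians run from -2.17 to -0.29, so the deposited score was scaled, and differences are score units, not fold changes. The files' unit differs from the log2 ratio the design assumed; the same tests were used. Of the chromosome 16 columns, 123 were used and 6, which match no listed sample, were not; 12 columns of chromosome 8 were used. No 2 of the 123 were identical (highest correlation 0.997).

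Gene scores are means over positions. In each fit, positions deleted in any of its clones were left out of all its profiles. Repeat libraries of a clone were averaged. Each of 22 genotypes was compared with 5 clones edited elsewhere with limma 3.58.1 in R 4.3.3 on svim, cast and svim minus cast, over 676 to 679 RefSeq (GRCm38.p6) protein-coding genes, with Benjamini-Hochberg adjustment and a threshold of 0.05; a.del to abc.del also shared 1 fit of 16 contrasts, and 11 non-hybrid genotypes were fitted against 46C. The code was tested on simulated data. Named genes are the 4 genes, 9 neighbours along the chromosome, the 3 genes most like them in svim score and the 3 most like them over 2 Mb away, Retn, and a list of 14 cell-surface genes, most of them immune. The genes, lists and tests were chosen with earlier results of these data known. Alternatives were rescaling on the rest of the chromosome, quantile normalization, gene windows with 25 kb on either side, robust eBayes, the first library of a clone alone, 1 fit of all clones, and leaving out clones. No F121.9 profile was used.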

Additional observations from a re-analysis of the deposited data

Results flagged for a closer look

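Clone C6 of c.del stood apart from the other 3 c.del clones at Trat1 on svim, with a score of -0.061 against -1.29 to -1.11. Its gap to the nearest clone exceeded Dixon's limit, which chance passes in about 1 in 20 groups, and 24 groups were looked at.

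The effect of a genotype differed between the svim and the cast allele, by the limma test of svim minus cast against the comparison clones (adjusted p below 0.05), in 26 tests. They lie in 7 genotypes, where 0.589% to 1.33% of all genes were called in the same direction. The 4 genes share 1 continuous profile, so these are not 26 separate cases. In 680kdel, whose deleted stretch is blank on cast, the difference was higher at Trat1 (3.49), Retnlb (2.83), Retnla (2.50) and Retnlg (2.22). In abc.del it was lower at Trat1 (-3.53), Retnlb (-2.98), Retnla (-2.60) and Retnlg (-2.11). In 4k.b.c.del it was -3.05 at Trat1, -2.90 at Retnlb, -2.81 at Retnla and -2.67 at Retnlg. In ac.del it was -2.44 at Trat1, -2.08 at Retnlb, -1.73 at Retnla and -1.40 at Retnlg. In c.del it was -2.24 at Trat1, -1.92 at Retnlb, -1.63 at Retnla and -1.28 at Retnlg. In bc.del it was -2.28 at Trat1, -2.00 at Retnlb and -1.73 at Retnla. In ab.del it was -1.85 at Trat1, -1.74 at Retnlb and -1.56 at Retnla.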

How the results depend on the processing

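No paired analysis was possible because the repeat numbers mark repeat libraries of 1 clone and pair no samples across genotypes. Read depth is unknown, so the number of clones sets the precision, and genotypes with 1 clone take their spread from others. No value changed sign past the threshold. Of the counts of the 4 genes called, 1654 stayed within limits under an alternative, 46 fell and 13 rose; single values kept their side in 520 cases and lost the call in 126. Causes of the changes were not tested. Rescaling on the rest of the chromosome moved the median of all genes, for instance from -0.046 to 0.27 for svim in c.del and from 0.082 to 0.51 in ab.del.

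On svim, rescaling left 0 of the 4 genes called in ab.del, c.del and ac.del and for loss of c alone, 2 in abc.del, and gave 1 for loss of c with a lost and 2 in non-hybrid 680kdel. Quantile normalization left 0 in ab.del and c.del and 2 for svim minus cast in 680kdel, and gave 4 for loss of c with a lost. Without the 30kdel clones, 0 were called on svim in ab.del, c.del and ac.del and for loss of c alone, and 2 in abc.del. In 1 fit of all cas/129 clones, 4 were called on svim in c.del and in 4k.b.c.del and 2 in bc.del, and 0 on svim minus cast in ab.del. The share of all genes called under the alternatives is not given here. Whether an alternative called more or fewer genes elsewhere on the chromosome can therefore not be read from these counts.

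Leaving out each clone in turn gave 0 to 4 called on svim in 4k.b.c.del, ac.del and ab.del, 1 to 4 in abc.del, 0 to 3 in c.del, 1 to 3 for loss of c alone and 0 to 1 for loss of c with a lost. On svim minus cast it gave 2 to 4 in ac.del and 0 to 4 in ab.del and bc.del, on cast 0 to 1 in 680kdel, and in non-hybrid cells 0 to 4 in 345kdel and in 680kdel. The svim minus cast calls in abc.del and 4k.b.c.del stayed at 4 in every alternative run, and those in c.del at 3 or 4. Exact permutation tests of 2 clones against the 3 left without the 30kdel clones cannot go below 0.1.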
